A study of Mus musculus with 106 samples.

Results

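The libraries described here are the control cerebral Gad2 RiboTag libraries and their total RNA: 6 RiboTag IP libraries and 3 Input libraries, 9 of the 106 libraries of the series. They were chosen by their labels alone (genotype Control, cell type Gad2, tissue Cerebrum), and they ask which genes are over- or under-represented on the tagged ribosomes of Gad2+ cells relative to the tissue around them. The control mice were Hdh Q7/Q7, that is, without the expanded huntingtin allele of the HD mice, on a 129S4 background and about 9 months old. All of them, HD mice included, carried 1 Gad2-IRES-Cre allele, a knock-in at the Gad2 locus, and 1 Rpl22-HA (RiboTag) allele, in which Cre recombination puts an HA epitope on ribosomal protein L22. The cerebrum of 1 frozen hemisphere, without olfactory bulb and cerebellum, was homogenised. Input is total RNA from that homogenate, and IP is the RNA that came down with an anti-HA antibody, both made into libraries with a stranded mRNA kit. Used for comparison were the HD mice of the same line (Hdh Q7/Q200, 6 IP and 3 Input libraries) and control mice of the PV (6 and 3), SST (5 and 4) and vGluT2 (6 and 3) lines, in which Cre is driven from other loci in PV, SST or vGluT2 cells of the cerebrum. For PV samples duplicate IPs of the same homogenate were pooled at clean-up to increase yield, so PV comparisons also compare IP procedures.

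Gad2 encodes GAD65, an enzyme that makes the inhibitory transmitter GABA from glutamate, and Slc32a1 encodes the transporter that loads GABA into vesicles. In the mouse cerebrum GABA neurons are very diverse: the projection neurons of the striatum, which use GABA and opioid or tachykinin peptides, the interneurons of cortex, hippocampus and striatum, and the GABA neurons of pallidum, thalamus and hypothalamus. Cre recombination is permanent, so the line tags the ribosomes of any cell that expressed Gad2 during development or later, with no separation between these classes. An IP to Input ratio is also a comparison of ribosome-bound with total RNA, so a gene can differ through the cells that express it or through how much of its RNA is on ribosomes, and in these bulk libraries fewer cells of a type and less RNA per cell cannot be told apart.

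The IP libraries held 25849571 to 42528280 counts on mouse genes and the Input libraries 34250550 to 39831602. Levels are CPM, counts scaled to a common library size with TMM factors (trimmed mean of M values) over the 9 libraries. A ratio is the log2 ratio of IP to Input, so that 1 is a 2-fold difference, followed by its standard error. A gene was called at a Benjamini-Hochberg adjusted p of 0.05 or less in edgeR's quasi-likelihood test over all 14672 protein-coding genes tested. IP and Input separated on the first component of the 500 most variable genes, which held 82.9% of the variance and put the IP libraries between -27.7 and -4.89 and the Inputs between 30.9 and 41.2.

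Some libraries stood apart from their own group, and results that rest on them are given with and without them. Input replicate 1 deviated from the mean of the 3 Inputs by a median of 0.339 log2 units over genes, against 0.121 and 0.247 for Inputs 2 and 3 and at most 0.182 for any IP library against the IP mean. Its deviations correlated with the merged exon length of the gene, as log2, (r = 0.435) and with GC content (r = -0.735) across genes. Those of Input replicate 3 did the reverse (r = -0.447 and 0.725). Genes are not independent replicates, so these r describe the libraries only. IP replicate 5 had 9.90% of its counts on 1 gene annotated as ribosomal RNA, where the other 5 IP libraries had 0.982% to 2.63%, and it counted 16838 genes, where the others counted 21098 to 21746. In IP replicate 1 mitochondrially encoded genes took 0.437% of the counts, against 0.0511% to 0.169% in the other 5.

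Of the 14672 genes, 2157 were called higher in the IP (14.7%) and 2633 lower (17.9%). A ratio of at least 2-fold was met by 740 of the higher genes (5.04% of all tested) and 1806 of the lower ones (12.3%). Every IP library lay above every Input library for 1928 genes (13.1%) and below every Input for 2617 (17.8%). The median ratio of all genes was 0.07. Without Input replicate 1 the 2-fold counts became 2075 genes higher (14.2%) and 1869 lower (12.8%), and those without a size rule became 3714 (25.4%) and 3222 (22.0%). Without Input replicate 2 only 1083 genes were called higher and 477 of them were at least 2-fold. Labels give the mouse of each library, and 3 mice have both kinds: with the mouse as a block over those 6 libraries, 844 genes were higher and 1650 lower.

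Among genes that make, load and clear GABA, the enzymes and transporters of neurons mostly rose in the IP, and the transporters of astrocytes and meninges fell. Of the 8 genes, 5 were called higher and 2 lower, with a median of 0.81. Gad2 (ENSMUSG00000026787.3, chr2:22622205-22693874, GRCm38) stood at 245, 460.2 and 513 CPM in the lowest, the median and the highest IP library and at 148, 83.4 and 66.95 CPM in Inputs 1, 2 and 3. Slc32a1 stood at 622, 823 and 935 CPM in the same order over the IP libraries and at 146, 207 and 237 CPM in the Inputs. Gad1, which encodes GAD67, was at 1219, 1599.6 and 1783 CPM against 367, 349 and 273. All 6 IP libraries were above all 3 Inputs for each of them, and the nearest pair for Gad2 was IP replicate 6 and Input replicate 1. The ratios were 2.10 ± 0.31 for Gad2 (edgeR adjusted p = 5.9e-04), 2.04 ± 0.20 for Slc32a1 (edgeR adjusted p = 1.1e-04) and 2.23 ± 0.18 for Gad1 (edgeR adjusted p = 5.8e-05). Aldh5a1, which oxidises the breakdown product of GABA, had a ratio of 0.63 ± 0.16 whose call was lost without Input replicate 2 (0.62, edgeR adjusted p = 0.0515) and with the mouse as a block (0.58, edgeR adjusted p = 0.095). Slc6a11, a GABA transporter of astrocytes, was at 31.7, 45.2 and 77.3 CPM in the IP and 368, 422 and 408 CPM in the Inputs, a ratio of -2.95 ± 0.28. Slc6a13, a transporter of the meninges, fell further, to a ratio of -3.85 ± 0.46.

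**Figure D1:**
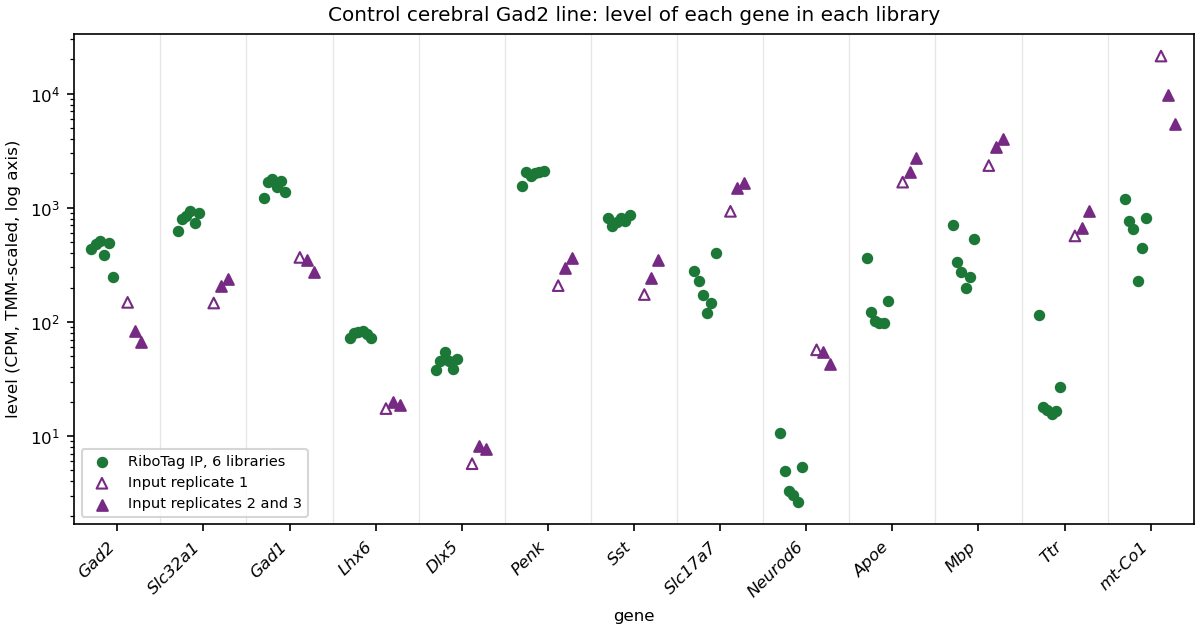
Level of 13 genes in each of the 9 libraries, as TMM-scaled CPM on a log axis, with circles for the 6 IP libraries in order of replicate number, an open triangle for Input replicate 1 and filled triangles for Inputs 2 and 3. Gad2 sits at 245 to 513 CPM in the IP and 66.95 to 148 in the Inputs, while Apoe sits at 97.1 to 362 and 1679 to 2753 CPM, with IP replicate 1 the highest IP library.

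Transcription factors that build forebrain GABA neurons in development were over-represented in the IP at about 9 months. Of 17 such genes, 13 were called higher, 12 of them at least 2-fold, with a median ratio of 1.83. Lhx6 (ENSMUSG00000026890.19), which specifies interneurons from the medial ganglionic eminence, was at 71.6, 78.5 and 83.02 CPM in the IP libraries and 17.4, 19.7 and 18.8 CPM in the Inputs. That narrow spread within each group left a wide gap between them, and the ratio was 2.06 ± 0.13 (edgeR adjusted p = 4.3e-05). The Dlx genes, which switch on the GABA programme in the embryonic ventral forebrain, all rose: Dlx6 by 2.99 ± 0.27, Dlx5 by 2.65 ± 0.19, Dlx1 by 2.21 ± 0.16 and Dlx2 by 1.91 ± 0.20. Dlx5 ran from 37.96 to 54.2 CPM over the IP libraries and from 5.71 to 8.09 over the Inputs. Sp8, a zinc finger gene of interneurons from the caudal ganglionic eminence, had a ratio of 2.44 ± 0.35 at a low level of 14.3 CPM (median). Maf, a factor of somatostatin and parvalbumin interneurons, rose by 1.16 ± 0.20. Satb1, which acts later in the same interneurons, was not called (0.38 ± 0.28, edgeR adjusted p = 0.31), and its IP range of 60.4 to 100.1 CPM took in Input replicate 1 at 96.4 CPM. Without that Input its ratio was 0.83 (edgeR adjusted p = 0.013). Across the list without Input replicate 1, 15 of 17 were called higher.

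Effector genes of striatal projection neurons had the highest median ratio of the lists. All 16 effector genes of these neurons were called higher, 15 of them at least 2-fold, every IP library lay above every Input for all 16, and the median ratio was 2.16. Penk, the precursor of the enkephalins used by neurons of the indirect pathway, was at 1542, 2038 and 2097 CPM in the IP and 208, 296 and 362 CPM in the Inputs. Ppp1r1b, which encodes the dopamine-regulated phosphatase inhibitor DARPP-32, was at 1987, 2178 and 2667 CPM against 272, 466.1 and 565. The ratios were 2.76 ± 0.20 (edgeR adjusted p = 4.7e-05) and 2.39 ± 0.23 (edgeR adjusted p = 1.1e-04). Both projection pathways took part. Drd1 and Tac1, the dopamine receptor and the tachykinin precursor of the direct pathway, rose by 2.52 ± 0.22 and 2.60 ± 0.15. Drd2 and Adora2a, the dopamine and adenosine receptors of the indirect pathway, rose by 1.71 ± 0.18 and 2.16 ± 0.22. Tac1 was nearly constant over the Inputs, at 54.2, 53.1 and 54.8 CPM, and ran from 287 to 378 CPM over the IP libraries. Sh3rf2 was the highest of the list at 2.97 ± 0.24, and Gng7, a G protein gamma subunit that couples these receptors to adenylyl cyclase, the lowest at 0.87 ± 0.17.

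Their transcription factors followed. Of 10, 8 were called higher, each at least 2-fold, with a median of 1.78. Six3 rose by 2.39 ± 0.15, Rarb, a retinoic acid receptor, by 2.36 ± 0.18, and Isl1, a factor of the direct pathway, by 2.35 ± 0.30. Bcl11b (CTIP2) ran from 174 to 295 CPM in the IP and from 45.7 to 89.8 in the Inputs, a ratio of 1.80 ± 0.25. Foxp1 was called at 1.47 ± 0.22 and Foxp2 at 2.28 ± 0.61. Foxp2 overlapped between the groups, with IP libraries from 22.5 to 83.97 CPM and Inputs at 22.8, 7.66 and 3.09 CPM. Without Input replicate 1 its ratio was 3.34 (edgeR adjusted p = 0.0012), and its call was lost without Input replicate 2 (2.07, edgeR adjusted p = 0.074). Ebf1, a factor of direct-pathway neurons, was not called at 0.34 ± 0.24, with IP and Input libraries overlapping at 6.80 to 13.8 and 6.001 to 8.94 CPM.

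Interneuron genes rose less evenly. Of 22 subclass markers, 17 were called higher, 1 lower and 4 not called, with a median of 1.35. Sst, the somatostatin precursor, was at 687, 786 and 860.0 CPM in the IP and 174, 241 and 351 CPM in the Inputs. Pvalb, the calcium buffer of fast-spiking interneurons, was at 316, 419 and 619.7 CPM against 93.01, 159 and 194, and Vip, a peptide of interneurons that inhibit other interneurons, at 106, 117 and 142 CPM against 24.5, 17.9 and 18.4. None of these overlapped between the groups. Vip had the highest ratio of the list, 2.56 ± 0.17 (edgeR adjusted p = 4.7e-05), while Sst rose by 1.62 ± 0.21 and Pvalb by 1.59 ± 0.27. Npy, shared by neurogliaform and striatal interneurons, rose by 2.03 ± 0.19. The exception in direction was Cck, a peptide of basket cells that many cortical and hippocampal pyramidal neurons also transcribe: it was at 76.6, 88.8 and 120.2 CPM in the IP and at 139, 236 and 325 CPM in the Inputs, a ratio of -1.35 ± 0.23 (edgeR adjusted p = 0.0015). With the mouse as a block that call was lost (-1.10, edgeR adjusted p = 0.057). Lamp5, of neurogliaform cells and also of deep and superficial pyramidal cells, had a ratio of 0.57 ± 0.15 that was lost without Input replicate 2 (0.53, edgeR adjusted p = 0.08) and with the mouse as a block (0.61, edgeR adjusted p = 0.059). Nos1, of long-range and neurogliaform cells, and Calb2 (calretinin) were not called, at 0.27 ± 0.15 and 0.23 ± 0.15, and their libraries overlapped. Calb2 was on the other side of 0 against the Inputs of all 4 lines (-0.078).

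Genes of diencephalic GABA neurons were at low levels, and about as many rose as were not called. Of the 12 subcortical transcription factors, 11 passed the filter on low counts and 6 of those were called higher, with a median of 1.11. The highest of them, Isl1 at 2.35, is also counted among the striatal projection neuron factors. Gata3, Tal1 and Sox14, which act in thalamic and midbrain GABA neurons, had ratios of 1.94 ± 0.19, 1.11 ± 0.18 and 2.29 ± 0.27. Gata3 was at 9.34, 10.5 and 11.9 CPM in the IP and 2.91, 2.37 and 3.01 CPM in the Inputs. Gata2, which acts with Gata3, was not called at 0.32 ± 0.22, with overlapping libraries.

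Neuropeptide genes of the hypothalamus and limbic system went both ways. Of 14 peptide genes, 13 were tested, 4 rose and 5 fell. Pnoc, the nociceptin precursor of many GABA neurons, was at 56.1, 63.2 and 68.7 CPM in the IP and 12.4, 14.3 and 19.05 CPM in the Inputs, a ratio of 2.05 ± 0.17. Tac2, Nts and Cartpt rose by 1.69 ± 0.23, 1.48 ± 0.23 and 1.004 ± 0.21. On the other side were peptides of magnocellular and lateral hypothalamic cells and of excitatory neurons. Oxt, the oxytocin gene, was at 0.167, 0.344 and 4.36 CPM in the IP and 16.4, 8.48 and 11.4 CPM in the Inputs, and Pmch, the precursor of melanin-concentrating hormone, at 0.623, 1.87 and 8.62 CPM against 40.7, 29.9 and 24.7. IP replicate 1 was the highest IP library for both, and still below every Input. Their ratios were -3.64 ± 0.89 and -3.53 ± 0.61, beside -4.26 ± 0.85 for Hcrt (orexin), -2.76 ± 0.64 for Avp (vasopressin) and -2.29 ± 0.32 for Adcyap1 (PACAP). Without IP replicate 1 Oxt was at -5.36, Pmch at -4.34 and Hcrt, also highest there, at -5.65. Hcrt was at 0 in at least 1 IP library.

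Per kilobase of merged exon length, the most abundant of the 740 enriched genes was Calm2, a calmodulin gene, with 1945 CPM per kb in the IP. Next came Penk (1194), Atp1b1, a sodium pump subunit (1158), Sst (1085), Hpca, the calcium sensor hippocalcin (808), and Ppp1r1b (775). Pcp4, Bex2, Nap1l5, Pcp4l1, Pvalb and Npy completed the first 12, at 391 to 661 CPM per kb. The ratios were 1.18 ± 0.18 for Calm2, 1.03 ± 0.16 for Atp1b1 and 1.13 ± 0.19 for Hpca. On the same scale Gad2 was at 72.5, Gad1 at 203 and Slc32a1 at 289 CPM per kb in the IP, so the GAD67 transcript was the more abundant of the GAD pair.

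The 12 highest ratios among genes with at least 5 CPM in a group and no overlap held, beside Dlx6, Dlx5, Sh3rf2, Penk and Tac1, genes outside the lists. Cd4, best known as a co-receptor of T cells, was at 61.2, 79.98 and 87.8 CPM in the IP and 9.65, 14.4 and 13.5 CPM in the Inputs, a ratio of 2.65 ± 0.19 (edgeR adjusted p = 4.7e-05). Clec12a, an inhibitory lectin receptor of myeloid cells, was at 4.34, 5.66 and 11.02 CPM against 0.420, 1.06 and 1.10, a ratio of 2.93 ± 0.42 (edgeR adjusted p = 5.4e-04). All 6 IP libraries were above all 3 Inputs for both. Microglia genes fell in the same libraries (9 of 12). Slc35d3, of a nucleotide sugar transporter family, rose by 2.66 ± 0.19, and Clspn, a DNA replication checkpoint gene, by 2.88 ± 0.32 at 8.41 CPM (median). Ahdc1 and Cog7, also among the 12, are taken up with the other lines.

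Glutamatergic neuron genes fell. Of 17, 13 were called lower, 12 of them at least 2-fold, and the other 4 were not called. The median was -1.79. Slc17a7, which encodes the vesicular glutamate transporter of cortex and hippocampus, was at 119, 199 and 399 CPM in the IP and 932, 1477 and 1654 CPM in the Inputs, with no overlap and a ratio of -2.60 ± 0.34 (edgeR adjusted p = 3.2e-04). Neurod6 and Emx1, factors of pallial projection neurons, fell to -3.37 ± 0.38 and -3.38 ± 0.56. Camk2a, a kinase of excitatory neurons that striatal projection neurons also express, fell by less, to -1.28 ± 0.16, and was the most abundant gene of the list in the IP. Slc17a6 (vGluT2, of thalamus and hypothalamus) had a ratio of -1.79 ± 0.45 with Inputs at 122, 43.7 and 28.8 CPM. That call was lost without Input replicate 1, the highest of them (-0.96, edgeR adjusted p = 0.064). Slc17a8 (vGluT3), which some cholecystokinin interneurons use, was at 5.47, 8.94 and 10.2 CPM in the IP and 8.81, 1.69 and 1.53 CPM in the Inputs. Its ratio of 1.04 ± 0.52 was not called with all 9 libraries (edgeR adjusted p = 0.15) and was 2.35 without Input replicate 1 (edgeR adjusted p = 3.5e-04). The list summed to 2323, 2633 and 3311 CPM in the lowest, the median and the highest IP library and to 4956, 6688 and 7192 CPM in the Inputs.

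Cholinergic and monoaminergic genes gave 5 calls of 12, all lower, with a median of -0.999. Slc6a3, the dopamine transporter, was at 1.52, 2.34 and 3.27 CPM in the IP and 16.7, 23.8 and 20.7 CPM in the Inputs, a ratio of -3.11 ± 0.25. Slc6a4, the serotonin transporter, had a ratio of -2.63 ± 0.74 that rested on Input replicate 1 at 12.1 CPM, and without it was -1.52 (edgeR adjusted p = 0.12). The call of Chat, which makes acetylcholine (-0.68 ± 0.22, edgeR adjusted p = 0.037), was lost with the mouse as a block (-0.73, edgeR adjusted p = 0.14) and in 7 of the 9 fits that left 1 library out. Slc18a3, the vesicular acetylcholine transporter, was below the Inputs in every IP library but not called (-0.90 ± 0.33, edgeR adjusted p = 0.061). Without IP replicate 5, the lowest, it was called (-0.72, edgeR adjusted p = 0.019).

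Genes that neurons share moved little. Of 14 pan-neuronal genes, 3 were called higher and the rest not called, with a median of 0.32. Only 1 call, that of Eno2, held with the mouse as a block. The call of Snap25 (0.87 ± 0.29) was also lost in 7 of the 9 fits that left 1 library out. Eno2, neuronal enolase, was at 1693, 2133 and 2330.1 CPM in the IP and 1034, 1514 and 1634 CPM in the Inputs, all IP libraries above all Inputs, with a ratio of 0.60 ± 0.17. Gap43, a growth cone protein, had a ratio of 0.46 ± 0.12. That call was lost without Input replicate 2 (0.43, edgeR adjusted p = 0.08) and with the mouse as a block (0.41, edgeR adjusted p = 0.13). Of 9 neuroblast and cycling cell genes, 7 were tested and 3 were called higher, with a median of 0.41. The calls of Sox11 (0.96, edgeR adjusted p = 0.06) and Cd24a (0.68, edgeR adjusted p = 0.11) were lost with the mouse as a block, the latter also in 6 of the 9 fits that left 1 library out. Igfbpl1, of migrating neuroblasts, rose by 1.67 ± 0.35 at 4.39 CPM (median). Dcx was not called (0.41 ± 0.41), with Input replicate 1 at 14.4 CPM inside its IP range of 8.34 to 15.3, and without that Input its ratio was 1.28 (edgeR adjusted p = 0.0055).

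Glial, vascular and blood genes fell together. All 12 astrocyte genes were called lower (median -2.83), as were all 12 oligodendrocyte genes (median -3.11), all 9 vascular and mural genes (median -3.07) and all 9 ependymal, choroid plexus and blood genes (median -3.44), and of 6 oligodendrocyte precursor genes 5 were (median -2.15). Gfap, the intermediate filament of astrocytes, was at 10.1, 18.8 and 41.2 CPM in the IP and 167, 186 and 256 CPM in the Inputs. Mog, a protein of the myelin surface, was at 4.61, 8.13 and 20.9 CPM against 95.8, 110.3 and 139.9, and Cldn5, of the tight junctions of brain endothelium, at 1.21, 2.03 and 5.81 CPM against 18.2, 21.4 and 32.02. No IP library reached any Input for these, and the ratios were -3.17 ± 0.39, -3.45 ± 0.42 and -3.11 ± 0.46. Apoe, the apolipoprotein of astrocytes, was the lowest of its list at -3.81 ± 0.41, and Aldoc, an aldolase that is the most abundant astrocyte gene in the IP, the highest at -1.48 ± 0.18. Pdgfra, a receptor of oligodendrocyte precursors, and Flt1, of endothelium, fell to -2.02 ± 0.33 and -2.28 ± 0.30. Ttr, the transthyretin gene of the choroid plexus, fell to -4.37 ± 0.63, and Hbb-bs, a globin gene, to -3.68 ± 0.63. Without IP replicate 1, the highest IP library for both, they were at -5.27 and -4.49. The call for Slc1a2, a glutamate transporter of astrocytes (-1.57 ± 0.45), was lost without Input replicate 1, at -0.77 (edgeR adjusted p = 0.14). With the mouse as a block Slc1a2 was at -1.50 (edgeR adjusted p = 0.075).

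What was left of these genes in the IP differed between libraries. The 12 oligodendrocyte genes summed to 1712 CPM in IP replicate 1, to 452 in IP replicate 4 and to 828 to 1087 in the rest except replicate 3 (795), against 5988, 5889 and 6793 in the Inputs. Mbp was their most abundant member in the IP at a mean of 382 CPM. The 12 astrocyte genes summed to 759.7, 1001 and 1562 CPM in the lowest, the median and the highest IP library and to 5906, 5219 and 5755 in the Inputs. IP replicate 1 was the highest of these libraries and IP replicate 4 the lowest for both lists. The 9 ependymal, choroid plexus and blood genes stood out more: 207 CPM in IP replicate 1 against 32.7 to 59.4 in the other 5 and 838 to 1343 in the Inputs, with Ttr the most abundant. Members at 0 in at least 1 IP library were Bmp4 among the precursor genes, Kcnj8 among the mural genes, and Ccdc153 and Hbb-bt. The part of this remaining RNA in the ratios of other genes was not tested.

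Microglia genes fell least among the non-neuronal lists. Of 12, 9 were called lower and 8 at least 2-fold, with a median of -1.32, and 3 were not called. The mouse as a block left 5 called lower, with a median of -1.22. Tmem119, a surface protein of microglia, was at 6.99, 9.54 and 17.01 CPM in the IP and 21.3, 30.5 and 35.3 CPM in the Inputs, a ratio of -1.44 ± 0.26 (edgeR adjusted p = 0.0021). Cx3cr1, the fractalkine receptor, was at 10.4, 19.7 and 23.5 CPM against 40.5, 39.8 and 41.5, a ratio of -1.14 ± 0.23. Neither overlapped between the groups. P2ry12, a purine receptor that steers microglial processes, was not called (-0.89 ± 0.44), with Inputs at 27.3, 19.03 and 7.61 CPM and IP libraries at 3.04 to 13.7, but was called without Input replicate 3 (-1.26, edgeR adjusted p = 0.044). Itgam (CD11b) fell to -1.48 ± 0.40, a call lost without Input replicate 2 (-1.52, edgeR adjusted p = 0.0502). The list summed to 138 CPM in IP replicate 4 and 321 in IP replicate 6, the ends of the IP range, and to 379.9, 482 and 521 in the Inputs, with no member at 0 in any IP library. In the IP libraries of HD mice of the line, read against their own 3 Inputs, edgeR called 0 of the 12 genes, where it called 7.71% of all 14765 genes higher and 15.6% lower, 2 had an unadjusted p under 0.05, DESeq2 called 1, and the median was -0.55. The 12 astrocyte, 12 oligodendrocyte, 6 precursor and 9 vascular genes were all called lower there. Whether the microglia ratios differ between control and HD mice was not tested.

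**Figure D2:**
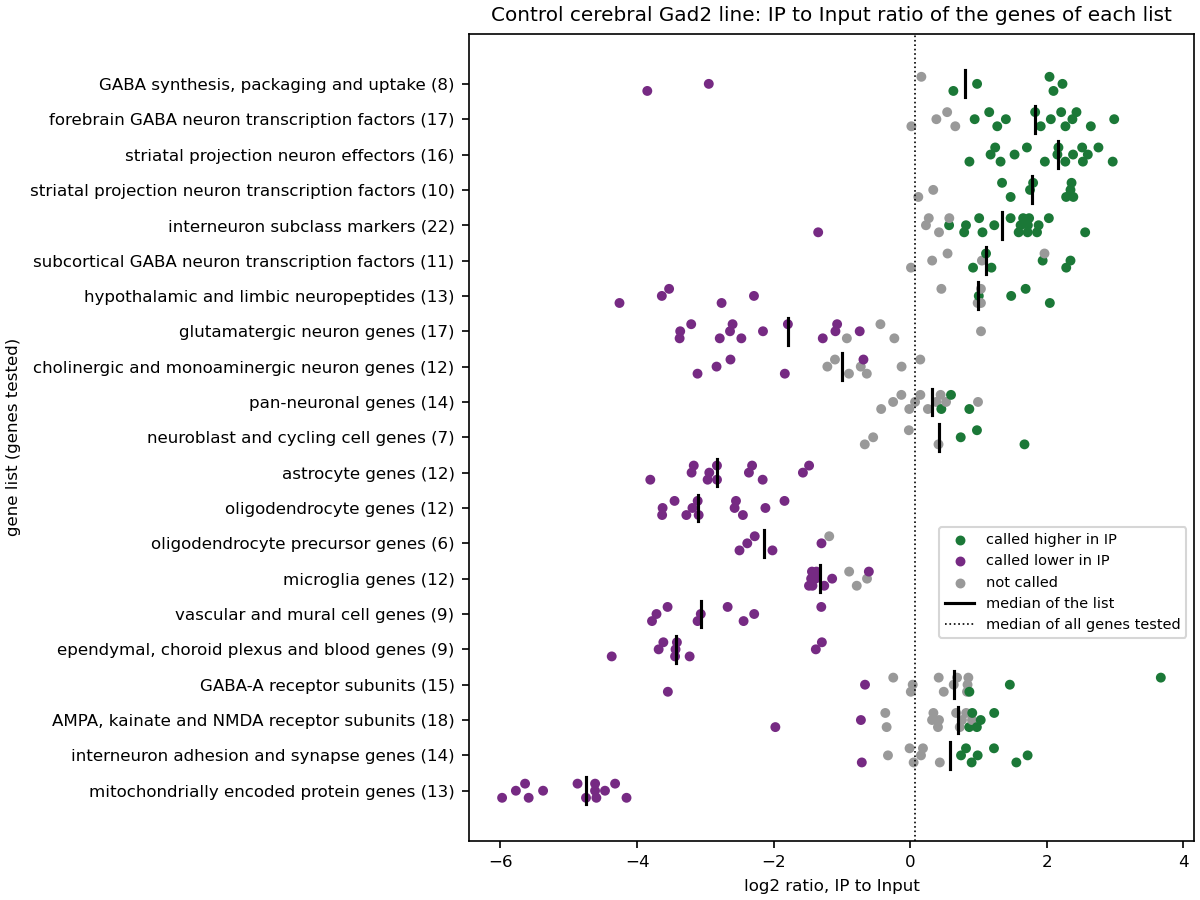
Log2 ratio of IP to Input for the tested genes of 21 lists, 1 point per gene, green where called higher, purple where called lower and grey where not called, with a black bar for the median of each list and a dotted line for the median of all genes tested (0.07). Medians run from -4.75 for the mitochondrially encoded genes to 2.16 for the striatal projection neuron effectors.

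Mitochondrially encoded RNA, which cytosolic ribosomes do not translate, had the lowest median of the lists. All 13 mitochondrially encoded protein genes fell, with a median of -4.75 (-4.10 without Input replicate 1, their highest Input), and 11 of the 12 lowest ratios among genes with at least 5 CPM in a group were mitochondrial, the other being Ly6c1, an endothelial surface protein (-4.69 ± 0.65). mt-Co1, a cytochrome oxidase subunit made inside mitochondria, was at 231, 715 and 1187 CPM in the IP and 21407, 9667 and 5419.8 CPM in the Inputs, a ratio of -4.15 ± 0.48 (edgeR adjusted p = 2.0e-04) and of -3.47 without Input replicate 1. The mouse as a block left 12 of the 13 called. The spread within each group was wide and the groups did not overlap. The 13 genes summed to 3584 CPM in IP replicate 1, 449 in IP replicate 4 and 63730.1, 34439.8 and 14726 in the Inputs.

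Long noncoding RNAs were measured in a fit over all 16509 genes of any type, in which 13.8% were called higher and 16.2% lower. Of 10, 9 were tested, 8 fell and 1 rose, with a median of -1.78. Malat1, a nuclear RNA, was at 2.94, 7.03 and 13.7 CPM in the lowest, the median and the highest IP library and at 261, 97.7 and 45.5 CPM in the Inputs, a ratio of -4.11 ± 0.54 with no overlap. Miat and Meg3, which neurons express, fell to -2.46 ± 0.20 and -2.10 ± 0.32. Dlx6os1, transcribed antisense to Dlx6, rose instead, by 2.31 ± 0.32, from 12.8, 7.30 and 4.38 CPM in the Inputs to 31.2 to 50.4 in the IP. The kit keeps strand, but the strand setting of the counting is not given in the sources used here, so reads of Dlx6os1 and Dlx6 may not be fully separate. In the fit over protein-coding genes Rpl22, the gene that carries the tag, was called lower (-0.54 ± 0.17, edgeR adjusted p = 0.032), with IP libraries at 49.9 to 72.8 CPM and Inputs at 72.5, 88.8 and 109 CPM, which overlap. That call was lost with the mouse as a block (-0.34, edgeR adjusted p = 0.27) and in 5 of the 9 fits that left 1 library out. Its paralog Rpl22l1 was not called (0.20 ± 0.28).

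Counts of receptor subunits depended on Input replicate 1, as did those over all genes. With all 9 libraries 14.7% of all genes were called higher and 17.9% lower, against 25.4% and 22.0% without that Input. With the mouse as a block 844 and 1650 of all 14805 genes were called. Of 15 GABA-A receptor subunits, 3 were called higher and 2 lower with all 9 libraries, and 12 higher and 2 lower without that Input. The counts were 3 and 0 with the mouse as a block. Without that Input the median went from 0.64 to 1.23. Gabra2, an alpha subunit of the striatum, was at 48.5, 178 and 249 CPM in the IP and at 172, 57.5 and 35.2 CPM in the Inputs. The groups overlapped, with Input replicate 1 above 2 of the IP libraries and IP replicate 6 below 2 of the Inputs, and the ratio went from 0.83 ± 0.55 (edgeR adjusted p = 0.27) to 1.76 ± 0.53 without it (edgeR adjusted p = 0.02). Gabra3 went from 0.42 to 0.97. Gabrd, the subunit of extrasynaptic receptors, was called in both, at 0.87 ± 0.24 and 0.61 ± 0.19. Gabrg3 was called at 1.46 ± 0.34, and at 2.16 without that Input. Gabra5, a subunit of hippocampal pyramidal cells, fell to -0.66 ± 0.18, with its call lost without Input replicate 2 (-0.57, edgeR adjusted p = 0.091) and with the mouse as a block (-0.67, edgeR adjusted p = 0.085). The other lower gene, Gabra6, a subunit of cerebellar granule cells, rests on Input replicate 2, which held 11.7 CPM where no other library passed 0.998, and without it the ratio was -0.084 (edgeR adjusted p = 0.97).

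Glutamate receptor genes gave 5 higher and 2 lower of 18 with all libraries and 11 higher and 3 lower without Input replicate 1, with medians of 0.70 and 0.87. Over all genes the shares were 14.7% and 17.9% with all libraries and 25.4% and 22.0% without that Input. The counts of glutamate receptor genes were 2 and 1 with the mouse as a block. Gria1, an AMPA receptor subunit, was at 412, 546 and 616 CPM in the IP and 326, 269 and 240.4 CPM in the Inputs, with no overlap and a ratio of 0.91 ± 0.17 (edgeR adjusted p = 0.0022). Gria2, the subunit that makes these receptors impermeable to calcium, was not called at 0.82 ± 0.48 and was 1.66 without that Input (edgeR adjusted p = 0.01). Grin2d, the NMDA receptor subunit of interneurons, rose by 0.86 ± 0.21, and Grik1, a kainate receptor subunit, by 1.23 ± 0.28, a call lost with the mouse as a block (0.88, edgeR adjusted p = 0.067). Grin2c, an NMDA receptor subunit that astrocytes express, fell to -1.97 ± 0.25. Among 14 adhesion and synapse genes of interneurons, 7 rose and 1 fell, with a median of 0.59, against 4 and 0 with the mouse as a block. Nxph1, a secreted neurexin ligand of interneurons, was at 98.1, 119 and 138 CPM against 46.9, 41.8 and 31.6 in the Inputs, all IP libraries above all Inputs, a ratio of 1.55 ± 0.18. Elfn1, a postsynaptic protein of somatostatin interneurons, rose by 0.82 ± 0.15. Gphn, the scaffold of inhibitory synapses, had a ratio of 0.90 ± 0.23 that was lost without Input replicate 2 (0.85, edgeR adjusted p = 0.061), without Input replicate 3 (0.75, edgeR adjusted p = 0.0521) and with the mouse as a block (0.70, edgeR adjusted p = 0.086). Igsf9b, an adhesion protein of inhibitory synapses, fell to -0.71 ± 0.18, a call lost with the mouse as a block (-0.73, edgeR adjusted p = 0.072) and against the Inputs of all 4 lines (-0.45, edgeR adjusted p = 0.098).

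Some of the highest ratios were shared with the other lines. Ahdc1, a gene for a DNA-binding protein, was at 276, 420.2 and 560.2 CPM in the 6 Gad2 IP libraries and 48.5, 66.3 and 67.9 CPM in the 3 Inputs, a ratio of 2.82 ± 0.26 (edgeR adjusted p = 9.8e-05). No Input reached an IP library. In each other control line, with its own Inputs, Ahdc1 rose too: by 4.49 in PV, 4.24 in SST and 1.55 in vGluT2 IPs. vGluT2 cells are excitatory. Scaled together over the 4 lines, its IP medians were 425 CPM in Gad2, 1549.9 in PV, 1199 in SST and 209 in vGluT2. Cog7, a subunit of the Golgi tethering complex COG, did the same, with a Gad2 ratio of 2.66 ± 0.25, a PV ratio of 4.90 and a vGluT2 ratio of 1.75. So did Rock2, a kinase of the cytoskeleton named after its values were seen, at 2.23 ± 0.38 in Gad2 (2.93 without Input replicate 1, its highest Input) and 4.90 in SST.

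In all, 137 genes were enriched at least 2-fold in the IPs of the 4 control lines, each against its own Inputs: 18.5% of the 740 genes of the Gad2 line, 6.01% of the 2279 of PV (15.5% of the genes tested there), 6.89% of the 1987 of SST (13.4%) and 7.06% of the 1940 of vGluT2 (13.2%). Enrichment alone therefore does not set these 137 genes apart in the Gad2 line, although the size of the ratio differed between lines for some of them. The Gad2 count behind these shares depends on its Inputs: it was 2075 (14.2%) without Input replicate 1 and 477 without Input replicate 2. The shared genes were not counted again in those fits. The cause of this sharing was not tested.

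**Figure D3:**
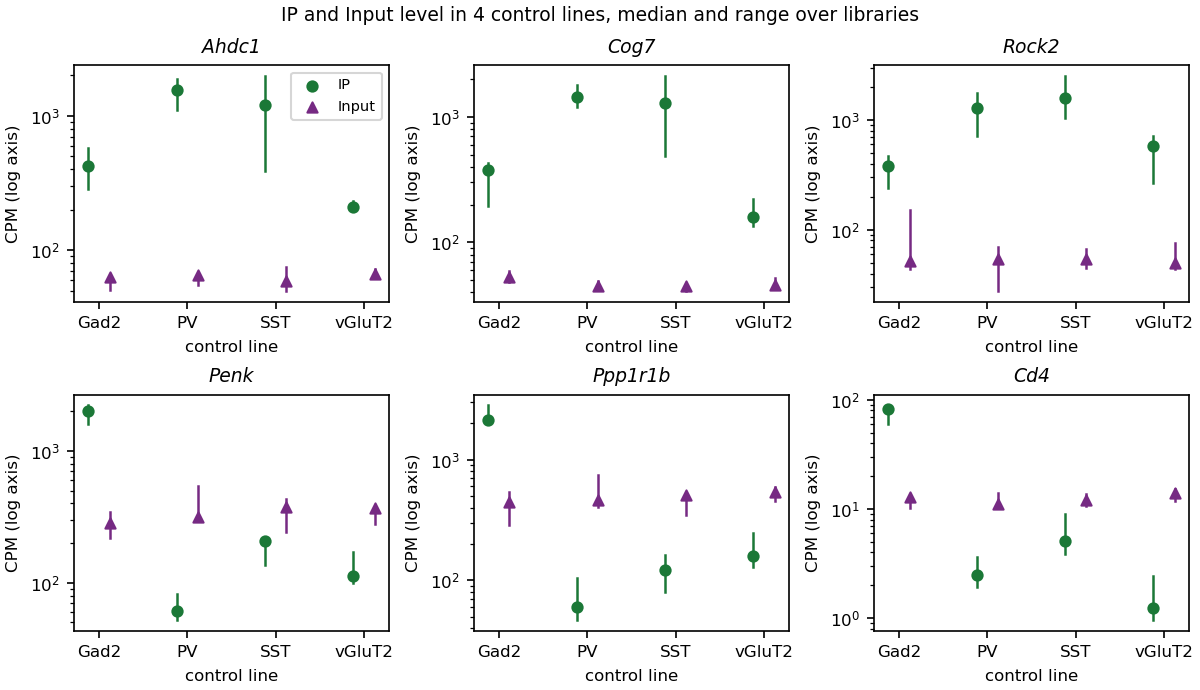
IP (green circles) and Input (purple triangles) level of 6 genes in 4 control lines, as CPM scaled over all these libraries on a log axis, with points at the median and bars from the lowest to the highest library. Ahdc1, Cog7 and Rock2 are above Input in the IP of every line, whereas Penk, Ppp1r1b and Cd4 are above Input in the Gad2 IP and below it in the others, with Cd4 medians of 82.1 CPM in Gad2 and 2.50 in PV IPs.

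Where the Gad2 IP differs from the PV IP was tested as the difference of the log2 ratios (Gad2 minus PV) in 1 fit of 18 libraries. The paper targeted PV neurons as a subset of GABAergic neurons. Whether all cells tagged in the PV line are Gad2+ was not tested. The PV IPs were also pooled from duplicate IPs, so line and IP procedure cannot be told apart. Of 14734 genes, 2727 had the higher ratio in Gad2 (18.5%) and 1662 the lower (11.3%). The largest differences were of members of the striatal effector list and the peptide list. Penk was at 5.58 ± 0.31, Ppp1r1b at 5.52 ± 0.40 and Tac2 at 5.42 ± 0.38, the latter pair with edgeR adjusted p = 4.8e-08 and 4.2e-08. Penk ran from 52.1 to 81.5 CPM over the PV IPs, below the PV Inputs at 312 to 545. Ido1, an enzyme of tryptophan breakdown, Clec12a and Cd4 came next, at 5.35 ± 0.47, 5.18 ± 0.82 and 5.02 ± 0.28. Cd4 was at 59.5 to 88.9 CPM in Gad2 IPs, at 1.94 to 3.66 in PV IPs and at 10.7 to 13.9 in PV Inputs. By list, 15 of the 16 striatal effector genes and 8 of the 13 peptide genes had the higher ratio in Gad2, while 11 of the 17 glutamatergic genes and 5 of the 6 oligodendrocyte precursor genes had the lower. Microglia genes had the higher ratio in Gad2 for 9 of 12, with a median difference of 1.60 against -0.01 for all genes of the Gad2 table.

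On the lower side, Macf1 and Dst, giant linkers of the cytoskeleton, had differences of -3.52 ± 0.67 and -3.19 ± 0.65, with PV IPs at 126 to 204 and 258 to 354 CPM. Input replicate 1 of the Gad2 line was the highest Input for both, at 118 and 182 CPM, and without it the differences were -2.29 (edgeR adjusted p = 0.0031) and -2.05 (edgeR adjusted p = 0.0058). Cntrl, a centrosomal gene, was at -3.34 ± 0.74, or -2.45 without that Input, and Atoh7, a proneural factor, at -3.55 ± 0.77. Smg1, a kinase of nonsense-mediated decay, at -3.15 ± 0.86, lost its call without that Input (-1.52, edgeR adjusted p = 0.10). Cog7 (-2.16 ± 0.28), Rock2 (-2.27 ± 0.51) and Ahdc1 (-1.59 ± 0.31) were called lower in Gad2 with and without that Input. The balance of this comparison depends on scaling: of the calls 62.1% were higher in Gad2 with TMM and 33.8% with library size alone, which moved the median difference of all genes from -0.01 to -0.30. With DESeq2 the share was 50.7% and the median -0.10, and without IP replicate 6 of the Gad2 line they were 45.9% and -0.17.

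Against vGluT2 neurons, 960 of 14711 genes had the higher ratio in Gad2 (6.53%) and 909 the lower (6.18%), in 1 fit of 18 libraries that shares the Gad2 libraries with the PV comparison. Most of the highest differences were GABA neuron genes at low levels in the vGluT2 IP. Dlx5 was at 0 to 0.993 CPM in vGluT2 IPs and 6.16 to 8.84 in their Inputs, a difference of 6.49 ± 0.65 (edgeR adjusted p = 1.4e-06). Slc32a1 was at 7.45 to 19.7 CPM in vGluT2 IPs, a difference of 6.30 ± 0.41. Clec12a, Adora2a and Six3 followed, at 6.06 to 6.20. Below 0, after Eomes, came Neurod6, Dkkl1, an acrosomal protein that cortex also expresses, Nrn1 (neuritin), Pmch and Ly6g6e, from -4.93 ± 0.46 for Neurod6 to -4.28 ± 0.83 for Ly6g6e. Pmch was at 0.646 to 8.94 CPM in Gad2 IPs and 24.9 to 56.2 in vGluT2 IPs. Eomes, a factor of olfactory bulb and cortical progenitors, had the lowest difference, -5.87 ± 1.61, from very low counts, and the call was lost without Input replicate 2 of Gad2 (-5.35, edgeR adjusted p = 0.0541) and without Input replicate 1 of vGluT2 (-5.41, edgeR adjusted p = 0.072). In a fit added after the data were seen, with the mouse as a block in both lines, Eomes was at -2.84 (edgeR adjusted p = 0.042), and Neurod6 was then further from 0. By list, 14 of 17 forebrain GABA transcription factors, all 16 striatal effector genes and all 12 microglia genes had the higher ratio in Gad2, and 16 of 17 glutamatergic genes the lower. Clec12a also stood at 0 to 0.135 CPM in the vGluT2 IP, below its Inputs at 0.330 to 0.934. Microglia genes differ in the same direction as Clec12a, a myeloid gene, in both comparisons, and the part of microglial RNA in its ratio was not tested.

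HD mice of the line gave the same contrast in libraries that share none with the controls. There, 390 of 14765 genes were enriched at least 2-fold (2.64%) and 1855 depleted (12.6%). Of the 734 control-enriched genes tested in both, 731 had a ratio above 0 in HD mice, with a median of 1.01 against 0.03 for all genes, and all 1788 control-depleted genes were below 0, with a median of -1.998. By calls, 321 enriched genes were shared, 43.7% of the control list and 82.95% of the HD list of 387, and 1523 depleted genes, 85.2% and 84.7%. Across the 14570 genes in both, the ratios correlated at r = 0.924, a description over genes, which are not independent. Gad2 was at 208, 299.6 and 458 CPM in the lowest, the median and the highest HD IP library and at 148, 89.9 and 70.1 CPM in the HD Inputs, with no overlap and a ratio of 1.61 ± 0.34 (edgeR adjusted p = 0.0052). Lhx6 had 2.02 ± 0.17, Penk 2.51 ± 0.30 and Cd4 2.48 ± 0.29. Without HD Input replicate 1 the HD count of enriched genes was 949. Differences between control and HD ratios were not tested.

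Within the 3 control mice that gave both kinds of library, the direction held gene by gene. Of the 740 enriched genes, 733, 738 and 738 were higher in the IP than in the Input of the same mouse, and of the 1806 depleted genes 1788, 1806 and 1792 were lower, with 0.01 CPM added to each level. These mice are among those that chose the genes, so this is a description. The size differed more: the median ratio of the enriched genes was 0.85 in the mouse of IP replicate 1 and Input replicate 1, 1.43 in that of IP replicate 4 and Input replicate 2 and 1.48 in that of IP replicate 6 and Input replicate 3, and of the depleted genes -1.42, -2.38 and -1.72. Penk had ratios of 2.89, 2.78 and 2.53 in these mice and Gad2 1.56, 2.22 and 1.87. Mbp, the myelin basic protein, ran from -1.72 in the mouse of IP replicate 1 to -4.11 in that of IP replicate 4.

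Enriched and depleted genes differed little in length and more in base composition. Median exon length was 3944 bases for the 740 enriched, 3878 for the 1806 depleted and 4455 for all 14672 genes, and median GC content was 46.4%, 52.9% and 50.1%. Across 14607 genes the ratio correlated with GC content at r = -0.272, and at r = -0.45 without Input replicate 1. With exon length, as log2, it correlated at r = 0.0792, and at r = 0.19 without that Input. The part of length and base composition in the ratios was not tested.

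The promoters of the 3 genes that make and load GABA are shown because these genes rose together, with that of Sp8 as the single forebrain factor gene with a window that holds the homeobox core searched for. Windows are promoter entries of RefSeq genes in GRCm38.p6, 300 bases each, read on the strand of the gene. An entry need not span the first start of its gene, and those shown for Gad1 and Sp8 lie downstream of the start that GENCODE gives the gene. The letters searched were TAATTA, which is its own reverse complement and the core of sites bound by Dlx and other homeodomain proteins, and GGGCGG with its reverse complement CCGCCC, the box of Sp factors. TAATTA was in 5.29% of all 32841 promoters, 2.78% of the 14640 of genes tested, 3.43% of the 758 of enriched genes and 3.29% of the 1765 of depleted genes. GGGCGG on either strand was in 35.7%, 60.3%, 53.6% and 55.2% of the same sets. Of 17 forebrain GABA transcription factors, 12 matched the table with 26 promoters, and 1 promoter of Sp8 held TAATTA. Capitals below mark the matches. Gad1 holds CCGCCC and Sp8 holds TAATTA at base 63, while the windows of Gad2 and Slc32a1 hold neither. The windows are chr2:22622077-22622376, chr2:70561879-70562178, chr2:158610508-158610807 and chr12:118847309-118847608, all on the plus strand. A match describes these letters only, not binding.
Gad2: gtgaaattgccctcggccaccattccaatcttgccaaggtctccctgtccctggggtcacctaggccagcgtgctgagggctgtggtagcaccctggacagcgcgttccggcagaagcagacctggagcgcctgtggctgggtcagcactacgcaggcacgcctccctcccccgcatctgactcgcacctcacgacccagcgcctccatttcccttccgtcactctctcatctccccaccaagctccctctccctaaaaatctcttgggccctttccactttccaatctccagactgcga
Gad1: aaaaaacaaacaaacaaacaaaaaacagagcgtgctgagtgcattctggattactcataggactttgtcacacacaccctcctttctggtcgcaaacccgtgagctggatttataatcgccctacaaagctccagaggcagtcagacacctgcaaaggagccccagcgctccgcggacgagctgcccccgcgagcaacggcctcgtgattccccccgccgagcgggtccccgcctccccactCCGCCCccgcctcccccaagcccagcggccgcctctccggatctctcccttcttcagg
Slc32a1: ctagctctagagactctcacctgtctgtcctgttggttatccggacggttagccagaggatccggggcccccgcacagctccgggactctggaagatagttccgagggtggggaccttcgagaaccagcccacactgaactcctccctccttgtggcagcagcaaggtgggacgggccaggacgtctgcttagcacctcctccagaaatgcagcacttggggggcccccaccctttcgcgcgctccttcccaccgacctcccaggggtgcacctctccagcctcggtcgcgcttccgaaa
Sp8: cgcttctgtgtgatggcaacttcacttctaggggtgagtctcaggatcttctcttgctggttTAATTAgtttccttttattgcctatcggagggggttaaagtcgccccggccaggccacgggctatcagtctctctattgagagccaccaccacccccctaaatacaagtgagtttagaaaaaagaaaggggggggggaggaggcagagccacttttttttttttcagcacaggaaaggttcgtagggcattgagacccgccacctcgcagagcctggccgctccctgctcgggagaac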

How the data were processed

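RNA from the cerebrum of 9 libraries, 6 RiboTag IP and 3 Input of control Gad2 mice, was compared. The authors made the deposited estimated counts (1 column per library, not normalized) with STAR and Salmon in nf-core/rnaseq 3.0 on GRCm38.p6, and the annotation release is not given in the sources used here. Estimated counts were rounded, 92 ERCC spike-in rows were left out, and protein-coding genes with a mean count above 10 over the libraries compared were kept. edgeR 4.0.16 (R 4.3.3) fitted TMM-scaled counts with the quasi-likelihood test, Benjamini-Hochberg adjusted over all genes tested, and a gene was called at an adjusted p of 0.05 or less. At 25849571 to 42528280 counts per library, variance between replicates over all genes exceeded counting noise by at least 15.6 times (chi-square per degree of freedom), which does not speak for genes with few counts. The difference between lines was the interaction of line and fraction in 1 fit. Alternatives were DESeq2 1.42.0, its size factors in edgeR, library size alone, other filters on low counts, all gene types, the mouse or the title number as a replicate block, Inputs of all 4 control lines and leaving out each library. Differences between lines were run only with DESeq2, library size alone, both replicate blocks (the mouse block added after the data were seen) and without each library.

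Genes were named by a rule: members of 23 lists (for each list with more than 5 tested members, its first 3, its highest and lowest ratio and up to 4 more), the 12 highest and 12 lowest ratios among called genes without overlap and with at least 5 CPM in a group, the 12 enriched genes with most CPM per kb, and the 6 highest and 6 lowest differences of each interaction. The members and lists were chosen with earlier results of these data known, and which members fill the places the rule leaves free, as well as Rock2, Dnajc2 and Upf3b, was chosen after their values were seen. Some genes that the rule names are not reported here. Titles number the replicates, and descriptions give the mouse: BO3 and BO03 were read as 1 animal, so that 3 mice have both fractions, and only the pair numbered 1 is from 1 mouse by title. Gene positions come from GENCODE, promoters from RefSeq. Cre-negative IP libraries were not used here, so RNA that sticks to beads or antibody was not measured. Tables and figures were made with Python 3.11.15, pandas 2.3.3, numpy 2.4.6 and matplotlib 3.10.9.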

Additional observations from a re-analysis of the deposited data

Results flagged for a closer look

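Of 135 named genes, 18 values in the 6 control Gad2 IP libraries lay far from the other 5 by Dixon's criterion, which chance meets in about 1 in 20 groups. In IP replicate 1, 12 genes that fell in the IP as a whole were at their highest: Apoe at 362 CPM (the other 5 libraries 97.1 to 151), Ttr at 116 (15.6 to 26.97), Hbb-bs at 35.7 (3.81 to 11.1), mt-Nd1 at 404 (34.3 to 135), mt-Nd2 at 227 (21.1 to 97.8), mt-Cytb at 349.8 (50.2 to 154), mt-Nd3 at 4.99, Neurod6 at 10.6, Oxt at 4.36, Pmch at 8.62, Hcrt at 1.45 and Adcyap1 at 9.16 CPM. Penk was at its lowest there, at 1542 CPM (1918 to 2097 in the others). The genes belong to mitochondria, glia, choroid plexus, blood and glutamatergic or peptide neurons.

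The other 5 values were scattered: Drd2 at 184 CPM in IP replicate 4 (139 to 153 in the others), Dcx at 15.3 in IP replicate 3, Slc18a3 at 1.64 in IP replicate 5, and Dnajc2, a ribosome-associated chaperone gene, at 17.3 and Upf3b, a gene of nonsense-mediated decay, at 10.3 in IP replicate 6 (the others 51.99 to 65.9 and 36.9 to 47.2). The reason for these values was not tested.

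Ratios of IP to Input differed between Gad2 and PV mice by a test of the difference for 15 named genes. The difference (Gad2 minus PV, log2) was 5.58 for Penk, 5.52 for Ppp1r1b, 5.42 for Tac2, 5.35 for Ido1, 5.18 for Clec12a and 5.02 for Cd4, and on the other side -3.55 for Atoh7, -3.52 for Macf1, -3.50 for Fat2, -3.34 for Cntrl, -3.19 for Dst, -3.15 for Smg1, -2.27 for Rock2, -2.16 for Cog7 and -1.59 for Ahdc1. Fat2 rested on few counts and on Gad2 Input replicate 2, without which it was -1.51 (edgeR adjusted p = 0.35), and its call was also lost without most other single libraries. Against vGluT2 the difference was 6.49 for Dlx5, 6.30 for Slc32a1, 6.20 for Clec12a, 6.15 for Adora2a, 6.06 for Six3 and 1.17 for Ahdc1, and -5.87 for Eomes, -4.93 for Neurod6, -4.49 for Dkkl1, -4.32 for Nrn1, -4.28 for Pmch and -4.28 for Ly6g6e.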

How the results depend on the processing

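Leaving out each library in turn gave 1083 (without Input replicate 2) to 3714 (without Input replicate 1) genes higher in the IP, 1790 to 3222 lower, 477 to 2075 enriched and 1437 to 1904 depleted at least 2-fold, so the enriched counts depend most on which Inputs are used. In HD mice the range was 299 (without Input replicate 2) to 949 (without Input replicate 1) enriched and 1542 to 1858 depleted. Against PV it was 1869 to 3001 higher and 1146 to 2205 lower in Gad2, and against vGluT2 677 to 1097 and 656 to 1212.

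With the mouse as a replicate block (3 mice with both fractions, 6 libraries) 844 genes were higher and 1650 lower. With the title number as a replicate block, which joins libraries of different mice for all but replicate 1, the control counts were 377 and 1019, or 333 and 1014 at least 2-fold, those against PV 534 and 185 and those against vGluT2 446 and 347. A mouse block for the differences between lines (3 mice of each line, 12 libraries) was added after the data were seen: it gave 1968 higher and 1428 lower against PV and 713 and 480 against vGluT2, and all 29 named differences kept their side of the threshold. Against the Inputs of all 4 control lines, a larger reference, 4533 genes were higher (1482 at least 2-fold) and 4727 lower. There the values of Calb2 and Rpl22l1 changed sign, to -0.078 (edgeR adjusted p = 0.62) and -0.032 (edgeR adjusted p = 0.90), neither called before or after. DESeq2 called 2503 genes lower in Gad2 than in PV, and library size without TMM 1478 higher and 2894 lower. The cause was not tested.

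Of 135 named ratios, 133 kept their direction and 82 kept their side of the threshold under every alternative, and 104 kept it when each library was left out. The 29 named differences between lines were run with DESeq2, with library size alone, with both replicate blocks and without each library only, and there these numbers were 29, 21 and 25.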
